A study of Mus musculus with 32 samples.

Results

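Genes of B cells and of B cell homing were followed through all 8 groups of a mouse lung study: Cxcl13 and its receptor Cxcr5, the B cell genes Cd79a, Cd79b, Ms4a1, Cr2, Fcer2a and Pax5, and the lymphotoxin gene Ltb. They were chosen by symbol, as 9 of the symbols in a count table of 35275 genes, and all 9 are also in the normalized table of 35186 genes. Cr2 has a second row in the count table, ENSMUSG00000094924 at chr1:195165745-195171168, which lies inside the main Cr2 gene and held 0 to 17 counts per library. That row was too low to be tested, so the main Cr2 row, ENSMUSG00000026616, stands for the gene below.

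B cells carry an antigen receptor that signals through the paired chains Cd79a and Cd79b. Their follicles are organised by Cxcl13, a chemokine made mainly by follicular stroma, which draws in cells that carry Cxcr5. Lymphotoxin beta, the product of Ltb, is displayed by lymphocytes and acts on stroma through the lymphotoxin beta receptor, which in turn raises Cxcl13 through the noncanonical arm of NF-kappaB. Follicles of this kind are known to form around airways in lungs exposed to smoke for months.

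The poly(A) RNA came from lungs of C57B/6 mice, in 32 libraries. In experiment 1, mice without surgery breathed room air (3 male and 3 female libraries) or cigarette smoke (5 male and 5 female libraries) for 5 months. In experiment 2, females had sham surgery or removal of the ovaries (ovariectomy, given in the labels as ovariectomie), and both surgery groups then had cigarette smoke, for 3 months (3 sham and 3 ovariectomy libraries) or 5 months (5 and 5). Experiment 2 has no air group, so smoke was not compared with air there. Libraries held 13790052 to 24497332 counts. The labels do not say that each library is a separate animal, so p-values measure the spread between these libraries, which may be technical. In the library titles, air and smoke libraries of experiment 1 carry separate runs of numbers, as do the groups of experiment 2. The labels name no batch and do not say what these numbers stand for. A batch that followed smoke or surgery could not be told apart from them. The lung epithelium list summed to at least 39061 CPM in every library. Liver genes stood apart in some libraries: 7 libraries had over 100 CPM of Alb, the albumin gene, namely male air 1, female air 2, ovariectomy 3-month 2 and 3, sham 5-month 1 and 2 and ovariectomy 5-month 5.

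Levels of different genes are compared in TPM, which scale the reads of a library per length of gene, and groups are compared in CPM, the count scaled to the library total. Over the 16 libraries of experiment 1 the mean level was 42.4 TPM for Cd79a, 41.9 for Cd79b and 33.8 for Ltb. Cxcl13 followed at 14.0 TPM, Ms4a1 at 13.6 and Pax5 at 12.8, while Fcer2a and Cxcr5 lay at 8.98 and 8.96 TPM and Cr2 at 1.53 TPM. These means pool air and smoke; in female air alone Cxcl13, at 5.22 TPM, was below Ms4a1 (7.79), Pax5 (6.63), Fcer2a (6.56) and Cxcr5 (5.67). Over the 16 libraries of experiment 2 the mean was 48.8 TPM for Cd79b, 37.7 for Ltb, 35.7 for Cd79a, 32.3 for Cxcl13 and 25.7 for Ms4a1. Pax5 had 10.9 TPM there, Cxcr5 8.97, Fcer2a 7.01 and Cr2 1.57. No library was at 0 for any of these genes, and the lowest count was 22, of Cxcl13.

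**Figure D1:**
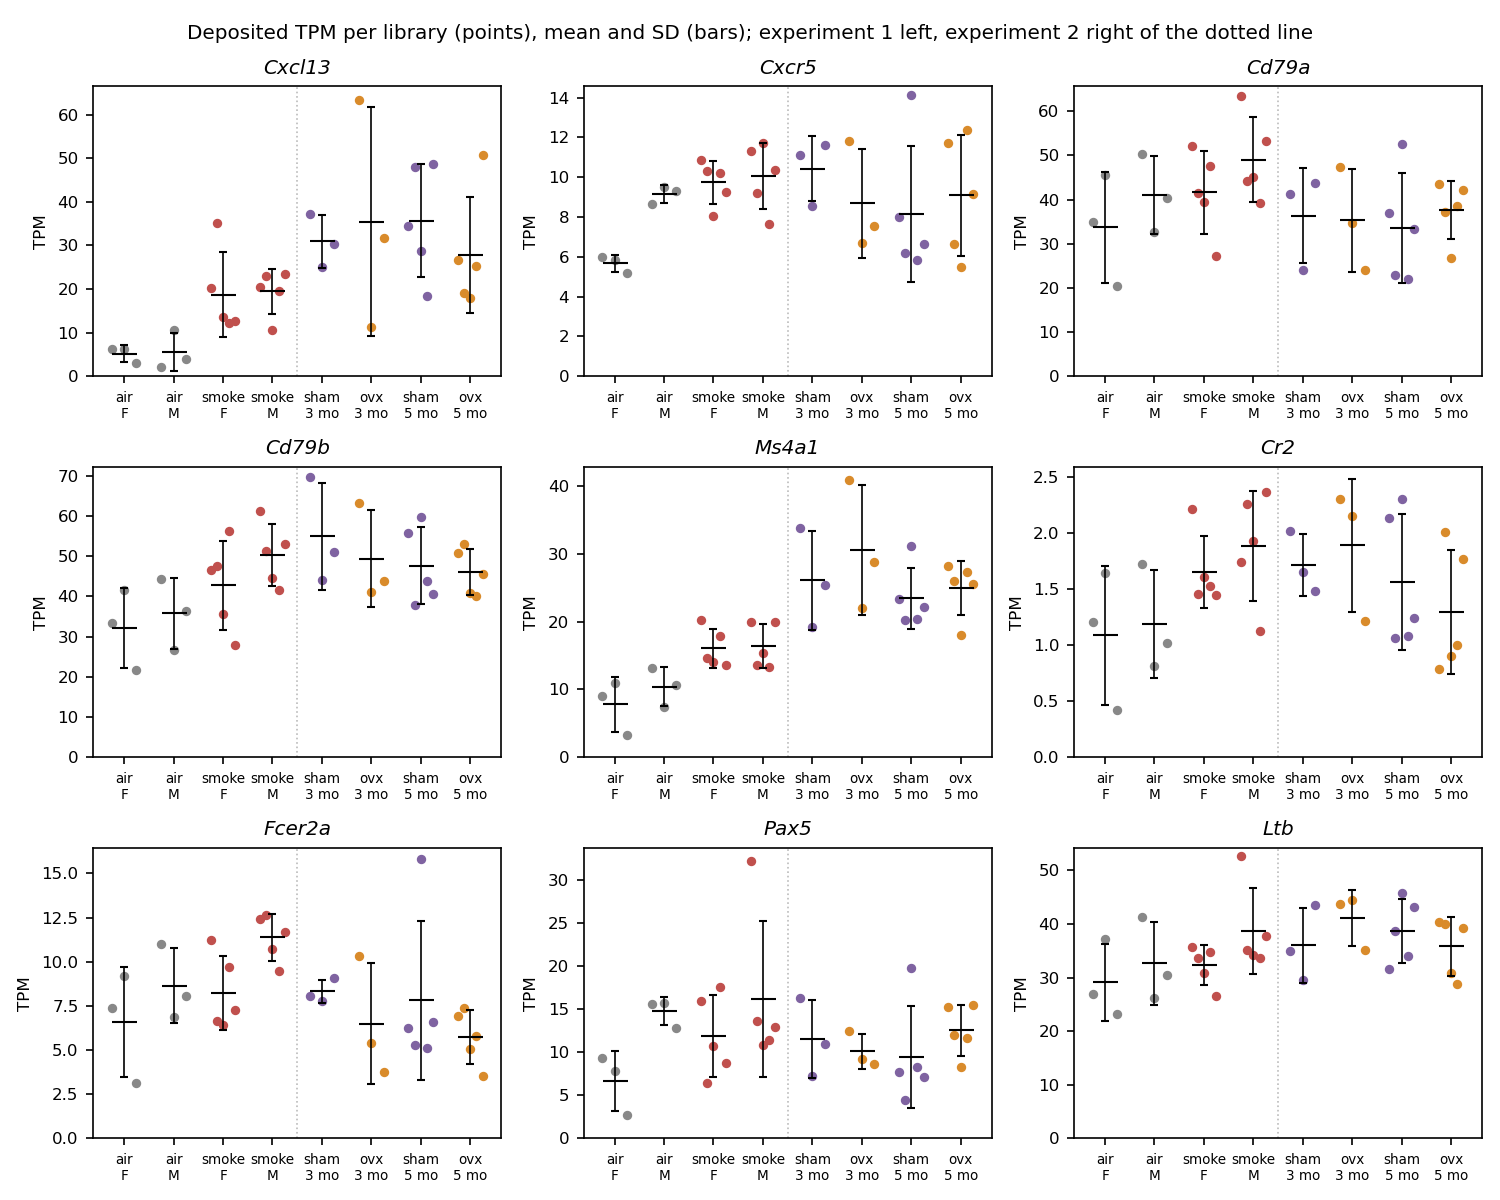
Each panel gives the TPM of 1 gene in every library (points) with the mean and SD of each group (bars), for the 4 groups of experiment 1 left of the dotted line and the 4 groups of experiment 2 right of it (F female, M male, ovx ovariectomy, mo months). Cxcl13 is low in both air groups, at 2.21 to 10.6 TPM, while Cd79a and Ltb have groups that overlap throughout.

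Cxcl13 (ENSMUSG00000023078, chr5:95956928-95961067, plus strand of GRCm38) had the largest fold difference between smoke and air among the 9 genes in both sexes. Its promoter window in RefSeq, chr5:95956689-95956988 on the plus strand of GRCm38.p6, is shown because the gene is a known target of RelB and p52, the noncanonical NF-kappaB pair. The capitals mark the letters GGGAGATTT, the start of the kappaB element known in this promoter, which were looked for after the sequence had been seen.

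Cxcl13 promoter: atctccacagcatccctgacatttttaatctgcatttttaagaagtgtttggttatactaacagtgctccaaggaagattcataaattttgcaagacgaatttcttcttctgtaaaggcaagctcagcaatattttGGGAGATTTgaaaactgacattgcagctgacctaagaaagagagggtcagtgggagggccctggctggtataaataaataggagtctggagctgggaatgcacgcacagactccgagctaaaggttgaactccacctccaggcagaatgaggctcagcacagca

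The match begins 114 bases before the RefSeq start on which the window is placed, which is not the start that the count table gives. The same 9 letters, on either strand, are in 0.317% of 32817 promoter windows of this length. Ltb (ENSMUSG00000024399, chr17:35194439-35196320, plus strand), the gene of the ligand at the other end of that circuit, is shown beside it with its window chr17:35194257-35194556, plus strand. The capitals there mark the looser kappaB frame, which is GGG, then 5 bases of any kind, then CC, on either strand, with overlapping matches run together.

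Ltb promoter: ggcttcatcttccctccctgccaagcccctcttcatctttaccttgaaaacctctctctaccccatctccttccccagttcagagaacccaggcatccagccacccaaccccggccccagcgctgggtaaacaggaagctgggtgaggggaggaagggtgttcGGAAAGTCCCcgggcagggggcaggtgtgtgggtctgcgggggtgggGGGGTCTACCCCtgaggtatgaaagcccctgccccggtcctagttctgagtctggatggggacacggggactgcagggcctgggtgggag

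All 6 of the 9 genes that have a window in the table (Cxcl13, Cd79a, Cr2, Fcer2a, Pax5 and Ltb) hold this loose frame, as do 50.8% of all windows. These 6 genes have 8 windows, and a gene was counted if any of its windows matched. The shares of all windows here are therefore not a like count. The octamer ATTTGCAT was in none of the windows of these 6 genes and in 1.74% of all windows. The EBF core CCCNNGGG was in none of theirs and in 13.7% of all. The PU.1 core GAGGAA was in those of Cd79a and Ltb and in 28.3% of all. Motifs were read on both strands, and a match is a description of letters and not of binding.

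In air, the Cxcl13 level was 3.69, 3.33 and 1.88 CPM in female libraries 1 to 3. Female smoke libraries 1 to 5 had 11.2, 19.7, 7.36, 6.55 and 7.31 CPM. Every female smoke library was above every female air library. Cxcl13 was 3.51-fold higher in female smoke than in female air, a log2 fold change of 1.81 ± 0.51 (SE), which passed the test (edgeR's quasi-likelihood test with Benjamini-Hochberg adjustment over all genes, adjusted p = 0.0456). In males the level was 1.29, 5.93 and 2.08 CPM in air and 11.2, 12.6, 5.86, 11.8 and 13.8 CPM in smoke. Air library 2 and smoke library 3 met near 6 CPM, and the other male libraries were apart. Cxcl13 was 3.56-fold higher in male smoke than in male air, a log2 fold change of 1.83 ± 0.51 (SE), and passed the same edgeR test (adjusted p = 0.0358). The fold changes of the sexes differed by 0.023 ± 0.69 (SE) on the log2 scale, male minus female (adjusted p = 0.999 in edgeR's test of the interaction).

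Both Cxcl13 calls lay close to the threshold of 0.05 and rested on single libraries. In females the adjusted p rose to 0.0865, 0.116 and 0.198 without air libraries 1, 2 and 3, and to 0.0703, 0.0620 and 0.0501 without smoke libraries 1, 2 and 3. It was also just above 0.05 without male air 3 or male smoke 1, 2, 4 or 5, which enter through the shared spread, at adjusted p of up to 0.0576. In males the adjusted p was 0.123 and 0.155 without air libraries 1 and 3, 0.0523 without female air 2, and up to 0.0700 without smoke library 1, 2, 4 or 5. The log2 fold change stayed between 1.44 and 1.99 in females and between 1.43 and 2.68 in males over these fits. Of the libraries over 100 CPM of Alb, male air 1 and female air 2 belong to these comparisons. Without them the log2 fold change was 1.89 in females (adjusted p = 0.0870) and 1.43 in males (adjusted p = 0.153), an alternative chosen after seeing the data.

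**Figure D2:**
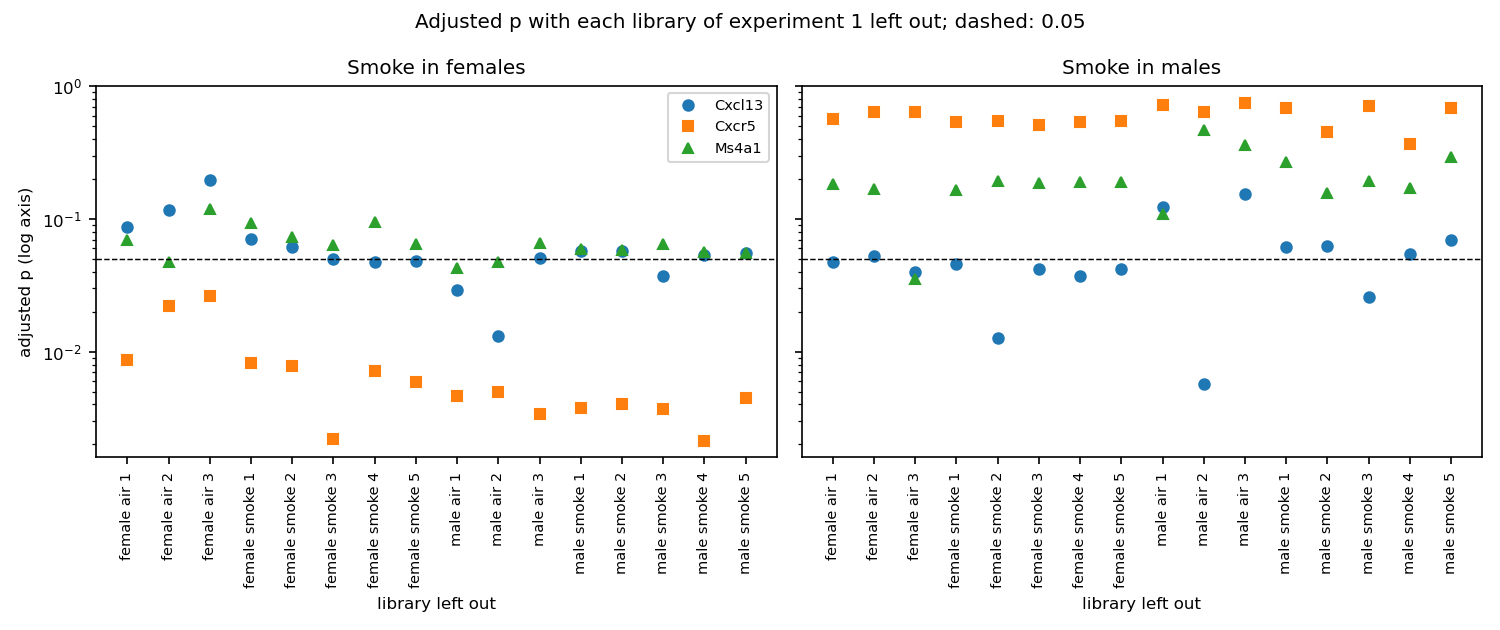
Adjusted p of smoke against air (log axis) for Cxcl13, Cxcr5 and Ms4a1 when each of the 16 libraries of experiment 1 is left out in turn, in females (left) and males (right), with the threshold of 0.05 dashed. Cxcr5 in females stays at or under 0.0264 throughout, while Cxcl13 crosses the line in both sexes.

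Cxcl13 had a mean of 5.22 ± 1.85 TPM (SD, n = 3) in female air, 5.61 ± 4.41 (n = 3) in male air, 18.7 ± 9.75 (n = 5) in female smoke and 19.5 ± 5.17 (n = 5) in male smoke. In experiment 2 the means were 30.9 ± 6.03 TPM (n = 3) in sham at 3 months, 35.5 ± 26.3 (n = 3) in ovariectomy at 3 months, 35.7 ± 12.9 (n = 5) in sham at 5 months and 27.9 ± 13.3 (n = 5) in ovariectomy at 5 months. Placed in order of the mean, from sham at 5 months down to female air, neighbouring groups overlapped at each step except between female smoke and male air. In CPM, male air library 2 (5.93) lay above male smoke library 3 (5.86), so the male groups were not fully apart on that scale. In TPM these libraries had 10.59 and 10.73, so the male groups were narrowly apart there. Since this is bulk RNA, more cells of a type and more RNA per cell cannot be told apart for this gene or for those below.

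Cxcr5 (ENSMUSG00000047880, chr9:44511788-44556391, minus strand), the receptor of Cxcl13 on mature B cells and follicular helper T cells, was the other gene that passed in females. Female air libraries had 8.51, 7.44 and 7.58 CPM, and female smoke libraries had 14.5, 13.9, 10.6, 13.2 and 12.8 CPM. These groups did not overlap. The gene was 1.66-fold higher in female smoke, a log2 fold change of 0.73 ± 0.15 (SE), with an adjusted p of 0.00317 in edgeR's test. The call held when any 1 of the 16 libraries was left out, at adjusted p of 0.00214 to 0.0264, and was lost when all 32 libraries were put in 1 fit (adjusted p = 0.0552). In males the air libraries had 12.1, 12.8 and 11.6 CPM and the smoke libraries 14.9, 12.2, 15.4, 11.2 and 14.7 CPM. The male groups overlapped, and the log2 fold change of 0.17 did not pass (adjusted p = 0.535 in edgeR's test).

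The smoke effects on Cxcr5 in the sexes differed by -0.57 ± 0.20 (SE) on the log2 scale, male minus female. The unadjusted p of that difference was 0.00997 and the adjusted p in edgeR's test of the interaction was 0.775, so a sex difference in the response was not established over all genes. The female air group was the lowest of the 8 in Cxcr5, with a mean of 5.67 TPM, and the other 7 groups had means from 8.16 to 10.4 TPM with ranges that overlapped from each to the next.

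Ms4a1 (ENSMUSG00000024673, chr19:11249675-11266241, minus strand), which encodes the B cell surface protein CD20, had the second largest fold in females and missed the threshold. Its level was 13.9, 15.3 and 5.29 CPM in female air and 29.5, 21.5, 20.1, 25.2 and 20.5 CPM in female smoke. No library of these groups overlapped with the other group. The level was 2.02-fold higher in female smoke, a log2 fold change of 1.01 ± 0.30 (SE), with an adjusted p of 0.0514 in edgeR's test. That p fell under 0.05 in 8 of 10 other settings, down to 0.00131 with DESeq2, and in 3 of 16 fits without 1 library. In males the air libraries had 20.1, 10.9 and 14.4 CPM and the smoke libraries 28.6, 19.6, 22.1, 21.1 and 30.6 CPM. Air library 1 lay inside the smoke range, and the log2 fold change of 0.69 did not pass (adjusted p = 0.168 in edgeR's test). It passed in 1 fit, that without female air library 3 (adjusted p = 0.0356).

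In females 2 of the 9 genes were called higher in smoke and none lower, while 4.52% of the 16361 genes tested were called higher and 7.7% were called in either direction. Cxcl13, Cxcr5 and Ms4a1, 3 of the 9, had smoke libraries all above the air libraries, as had 8.04% of all genes tested. At an unadjusted p under 0.05 there were 3 of 9, beside 21.3% of all genes. In males 1 of 9 was called higher, where 4.93% of all genes were called higher and 10.3% in either direction. In CPM none of the 9 had male smoke libraries all above the air libraries, as 8.61% of all genes had. At an unadjusted p under 0.05 there were 3 of 9 in males, beside 23.2% of all genes. All 9 log2 fold changes were above 0 in each sex. Their median was 0.58 in females and 0.42 in males, beside -0.013 and 0.0073 for all genes tested. The 9 genes were chosen with earlier results of these data known, so these counts are a description.

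**Figure D3:**
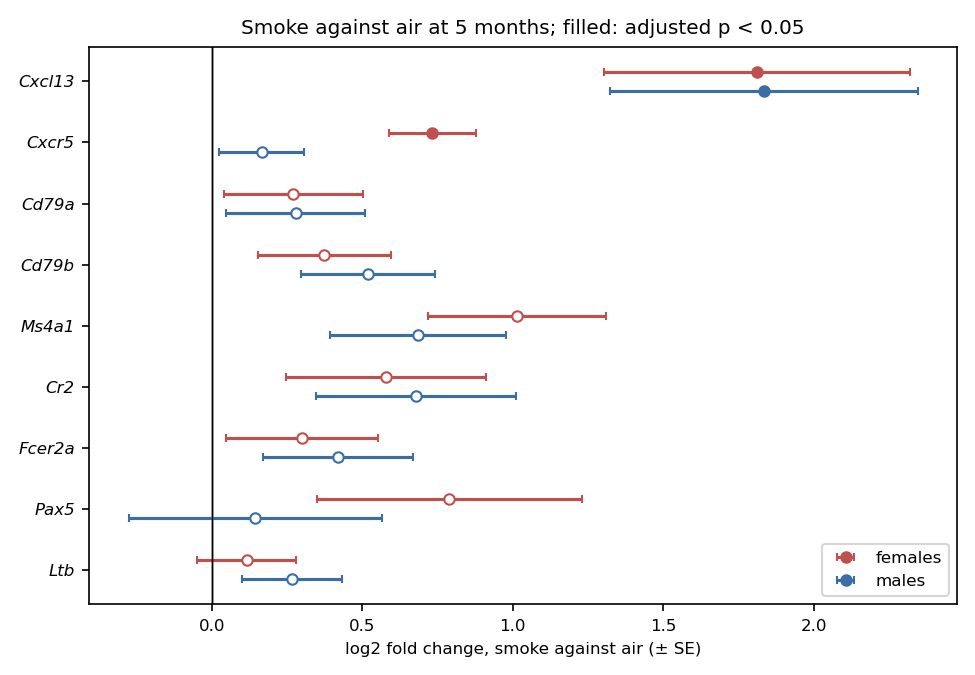
Points give the log2 fold change of smoke against air at 5 months for each gene with its SE, in females (red) and males (blue), filled where the adjusted p was under 0.05. Cxcl13 lies at 1.81 and 1.83, and Cxcr5 at 0.73 in females and 0.17 in males.

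The remaining B cell genes did not pass in either sex. Cd79a (ENSMUSG00000003379, chr7:24897381-24902197, plus strand), a chain of the receptor complex, ran from 15.5 to 30.0 CPM in female air and from 19.5 to 36.0 CPM in female smoke. Its log2 fold change was 0.27 in females (adjusted p = 0.562) and 0.28 in males (adjusted p = 0.528), both in edgeR's test. Its partner Cd79b (ENSMUSG00000040592, chr11:106311341-106314762, minus strand) ran from 16.0 to 26.8 CPM in female air and from 19.7 to 37.0 CPM in female smoke. The log2 fold changes of Cd79b were 0.37 in females and 0.52 in males (adjusted p = 0.367 and 0.167 in edgeR's test). Both chains therefore had smoke libraries inside the range of the air libraries.

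Pax5 (ENSMUSG00000014030, chr4:44531145-44710487, minus strand), the transcription factor that keeps B cell identity, had 7.53, 5.72 and 2.29 CPM in female air and 12.2, 5.00, 8.02, 13.0 and 6.94 CPM in female smoke. Its log2 fold change was 0.79 in females and 0.15 in males (adjusted p = 0.338 and 0.889 in edgeR's test). Cr2 (chr1:195136811-195176715, minus strand), the complement receptor of B cells and follicular dendritic cells, was the lowest of the 9 genes in TPM. It had 1.35 to 4.60 CPM in female air and 4.32 to 6.51 CPM in female smoke. In CPM the female air mean of Cxcl13, at 2.97, was below that of Cr2, at 3.23. The log2 fold changes of Cr2 were 0.58 and 0.68 in females and males (adjusted p = 0.335 and 0.225 in edgeR's test). Fcer2a (ENSMUSG00000005540, chr8:3681737-3694174, minus strand), the low-affinity IgE receptor CD23, had 0.30 and 0.42 (adjusted p = 0.547 and 0.337), and Ltb had 0.12 and 0.27 (adjusted p = 0.745 and 0.364), in females and males in the same test. The ligand gene Ltb thus had the smallest fold change of the 9 in females, and its groups overlapped in both sexes.

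Female air library 3 had the lowest level of the 3 female air libraries in every one of these genes other than Cxcr5, with Cd79a at 15.5, Ms4a1 at 5.29 and Pax5 at 2.29 CPM. Without it, the female log2 fold change fell from 1.01 to 0.67 for Ms4a1 (adjusted p = 0.120), from 0.27 to 0.036 for Cd79a (adjusted p = 0.968) and from 0.30 to -0.014 for Fcer2a (adjusted p = 0.989), all in edgeR's test. Cxcr5 changed little, from 0.73 to 0.70 (adjusted p = 0.0264). The fold changes of most B cell genes in females thus rested partly on 1 air library, and that of Cxcr5 did not.

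Blood and liver genes also differed between air and smoke, but not alike in the sexes. Of the erythroid list, 6 of 6 genes were higher in female smoke than in female air, with a summed level of 2252 to 3175 CPM in female air and 6222 to 14715 CPM in female smoke. In males 0 of 6 passed, at 3805 to 11752 CPM in air and 9096 to 11833 CPM in smoke (edgeR's quasi-likelihood test). The liver list summed to 3.23 to 163 CPM in female air and 1.78 to 331 CPM in male air, against 0.798 to 10.5 and 0.595 to 1.82 CPM in smoke, and 0 of 3 liver genes in females and 3 of 3 in males were called lower. At an unadjusted p under 0.05 there was 1 erythroid gene in males and there were 2 liver genes in females, of which DESeq2 called 1. Markers shared by all leukocytes were called in 0 of 4 in either sex by that test, by DESeq2 and by limma, with 0 at an unadjusted p under 0.05, and their summed level was 363 to 551 CPM in female air and 371 to 485 CPM in female smoke. The part of blood and liver RNA in the differences above was not tested, beyond the fits without the libraries over 100 CPM of Alb.

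Other B cell genes were read from a list of markers. In females 2 of 21 were higher and none lower, 18 had a log2 fold change above 0, and the median was 0.41. The calls were Cd22, an inhibitory receptor of B cells, at 0.59 (adjusted p = 0.0371) and Ighm, the constant region of IgM, at 2.05 (adjusted p = 0.0387), both in edgeR's test. Ighm is also made in quantity by antibody-secreting cells, and reads of immunoglobulin genes can be split between near-identical copies, so its value is uncertain. Cd22 was lost in 6 of 16 fits without 1 library and Ighm in 8. Without the libraries over 100 CPM of Alb both were lost (adjusted p = 0.101 and 0.0885 in edgeR's test). In males 0 of 21 passed in edgeR's test, DESeq2 or limma, 4 had an unadjusted p under 0.05, 16 were above 0 and the median was 0.25, with the smallest p for the kinase gene Blk at 0.64 (adjusted p = 0.109).

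Plasma cell genes had the larger folds. In females 4 of 14 were higher, with a median log2 fold change of 2.29, and in males 2 of 14, with a median of 1.78. Igj, the joining chain of secreted IgM and IgA, had a mean of 6.57 ± 0.835 CPM (SD, n = 3) in female air and 108 ± 78.8 (n = 5) in female smoke. Its log2 fold change was 4.04 in females (adjusted p = 0.00580) and 3.35 in males (adjusted p = 0.0121), in edgeR's test. Igkc, the kappa light chain constant region, was higher by 2.93 in females and 1.87 in males (adjusted p = 0.00598 and 0.0357). In females both calls held without each of the 16 libraries in turn, and in males Igj was lost in 1 of those 16 fits and Igkc in 6. Without the libraries over 100 CPM of Alb both held in females (adjusted p = 0.0230 and 0.0334 in edgeR's test). In that fit both were lost in males (adjusted p = 0.0588 and 0.111). The other calls in females were Ighg2b at 4.63 and Tnfrsf17, the BCMA receptor of plasma cells, at 3.74 (adjusted p = 0.0431 and 0.0486), and each held in 5 of 16 fits without 1 library. Neither held without the Alb libraries (adjusted p = 0.142 and 0.120 in edgeR's test).

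Germinal centre genes gave 0 higher and 1 lower of 8 in females, and 1 higher and 1 lower in males. The fall in females was Cxcr4, a chemokine receptor that many cells carry (log2 fold change -0.38, adjusted p = 0.0347), a call that held in 10 of 16 fits without 1 library and in 5 of 10 other settings. In males S1pr2, which holds B cells in the germinal centre, was higher at 0.51 (adjusted p = 0.0183) and the repressor gene Bcl6 was lower at -0.40 (adjusted p = 0.0109), in edgeR's test, and these held in 14 and 15 of 16 such fits. Rgs13, a regulator of G protein signalling found in germinal centre B cells, was too low to test and was singled out after its counts were seen. Rgs13 had 0 counts in all 6 air libraries, where a count of 0 allows up to 3 counts in a library, with 5 counts in all in female smoke and 7 in male smoke. No fold is given for these counts, since they lie near the limit of detection.

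**Figure D4:**
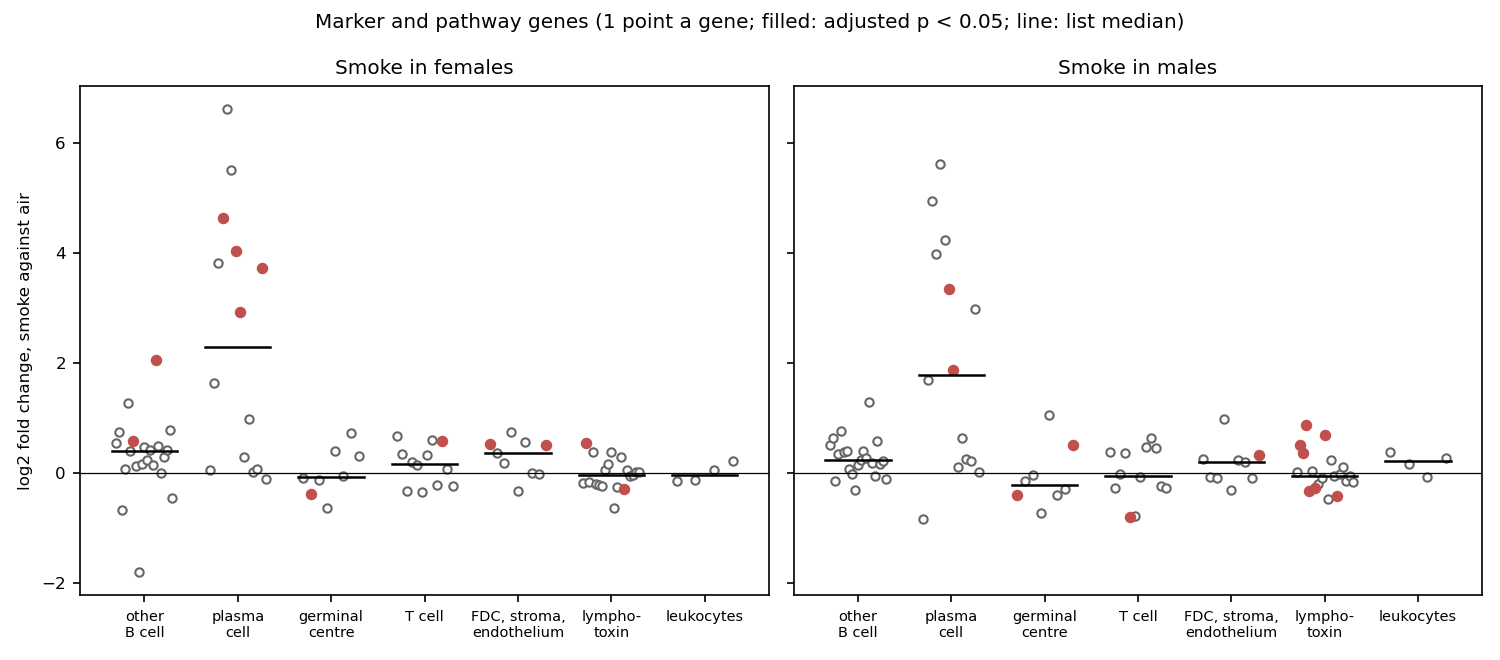
Each point is the log2 fold change of 1 gene in smoke against air, in females (left) and males (right), for 7 lists of markers and pathways (FDC, follicular dendritic cell), with genes at an adjusted p under 0.05 filled and the list median as a line. Plasma cell genes reach the highest values, with medians of 2.29 and 1.78, and the other B cell list has medians of 0.41 and 0.25.

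Of the lymphotoxin and lymphoid tissue genes, 1 of 19 was higher and 1 lower in females, and 4 were higher and 3 lower in males. Icam1, an adhesion molecule and a known NF-kappaB target, was higher in both sexes, at 0.54 (adjusted p = 0.00402) and 0.51 (adjusted p = 0.00439) in edgeR's test. Tnfrsf1a, a receptor of tumour necrosis factor, was lower in both, at -0.28 and -0.41 (adjusted p = 0.0493 and 0.00327). In males Ltbr, the receptor of lymphotoxin beta, was lower at -0.32 (adjusted p = 0.00490), and Id2, a transcription regulator gene that lymphoid tissue inducer cells need, was higher at 0.37 (adjusted p = 0.0224). The list median was within 0.1 of 0 in both sexes on the log2 scale, at -0.028 and -0.041. Of these calls, Icam1 in both sexes and Tnfrsf1a and Ltbr in males held in each of the 16 fits without 1 library, while Tnfrsf1a in females held in 6.

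Among homeostatic chemokines and receptors other than Cxcl13 and Cxcr5, 0 of 11 were higher and 2 lower in each sex. Cxcl12, the stromal chemokine that retains lymphocytes and plasma cells, was lower by a log2 fold change of -0.53 in females (adjusted p = 0.00356) and -0.56 in males (adjusted p = 0.00176), in edgeR's test. Its mean was 226 ± 7.08 CPM (SD, n = 3) in female air and 156 ± 23.2 (n = 5) in female smoke. Cxcl12 and Cxcl13 thus passed in opposite directions in both sexes. The second fall was Cxcr4 in females and Ackr3, a scavenging receptor of Cxcl12, in males (-0.57, adjusted p = 0.0339), each held in 10 of 16 fits without 1 library.

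In the list of follicular dendritic cells, lymph node stroma and high endothelium, 2 of 9 genes were higher in females and 1 in males. Pdpn, the stromal marker podoplanin, which alveolar type 1 cells also express, was higher at 0.52 in females and 0.34 in males (adjusted p = 0.00264 and 0.0317 in edgeR's test), in 16 and 10 of 16 fits without 1 library. Bst1, which marks stroma and some myeloid cells, was higher at 0.54 in females (adjusted p = 0.00808). Glycam1, which defines high endothelium, was at 0 in both air groups and in male smoke, and reached 3 counts in all in female smoke. In experiment 2, 34 counts of Glycam1 came from 1 sham library at 3 months. T cell genes gave 1 higher of 12 in females, Il7r at 0.58 (adjusted p = 0.0213), and 1 lower of 12 in males, Cd4 at -0.80 (adjusted p = 0.0339). Il7r held in 13 and Cd4 in 12 of 16 fits without 1 library, and Cd4 in 4 of 10 other settings. B cell receptor signalling genes gave 0 of 14 in either sex in edgeR's test, DESeq2 and limma, with 4 in females and 0 in males at an unadjusted p under 0.05. Follicular helper T cell genes gave 0 of 3 in either sex in edgeR's test, with 2 and 1 at an unadjusted p under 0.05, and DESeq2 called 1 in females. Their median log2 fold change was -0.64 in females, with 1 of 3 above 0, and 0.41 in males, with 2 of 3 above 0. The mean summed level of the whole list was 26.4 CPM in female air and 17.2 in female smoke, and 22.5 in male air and 16.1 in male smoke. Of the B cell survival genes, Tnfrsf17 alone of 9 passed in females, and 0 of 9 in males by edgeR, DESeq2 and limma, where 4 had an unadjusted p under 0.05. Of 4 complement genes, C4b was higher in females at 0.73 (adjusted p = 0.00189) and C3, the precursor of the ligand of Cr2, was lower in males at -0.48 (adjusted p = 0.0160). Interstitial macrophage genes gave 0 of 9 in females in edgeR's test, with 2 at an unadjusted p under 0.05 and 1 call by DESeq2, and 1 lower of 9 in males, Lyve1 at -1.10 (adjusted p = 0.0180). The median of that list was -0.29 in females, with 2 of 9 above 0, and -0.00075 in males, with 4 of 9 above 0. Alveolar macrophage genes gave 0 of 7 in females in edgeR's test, DESeq2 and limma, with 0 at an unadjusted p under 0.05, and 1 lower of 7 in males, Fabp1 at -1.54 (adjusted p = 0.0207), which held in 4 of 10 other settings. The only thymocyte gene high enough to test gave no call. Mesothelium and adipose genes gave 1 higher of 6 in females, Wt1 at 0.58 (adjusted p = 0.0445, held in 5 of 16 fits without 1 library and lost without the Alb libraries at 0.0713), and 0 of 6 in males, with 1 at an unadjusted p under 0.05. Lung epithelium genes gave 1 higher of 6 in females, Cldn18 at 0.62 (adjusted p = 0.00595 in edgeR's test). In males 2 of 6 were higher in the same test, Ager at 0.45 (adjusted p = 0.0153) and Cldn18 at 0.48 (adjusted p = 0.0221). These calls held in 16, 14 and 11 of 16 fits without 1 library, in that order.

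Males and females were compared within air and within smoke. In air 0 of 9 genes passed in edgeR's test, where 0.177% of all genes were called, and 2 of 9 had an unadjusted p under 0.05, beside 9.27% of all genes. All 9 were above 0, male minus female, with a median of 0.26 beside -0.0070 for all genes. Cxcr5 was 1.55-fold higher in male air, a log2 fold change of 0.63 ± 0.16 (SE) with an adjusted p of 0.144, and passed with DESeq2 at 0.0293. Pax5 had 12.5, 12.1 and 9.15 CPM in male air, above all 3 female air libraries, and a log2 fold change of 1.11 (adjusted p = 0.493 in edgeR's test). Those 2 genes did not overlap between the sexes in air, as did 7.73% of all genes tested with males higher. In smoke 0 of 9 passed in edgeR's test, where 0.189% of all genes were called, and the 9 values ran from 0.061 for Ms4a1 to 0.49 for Fcer2a. Fcer2a was the only 1 of the 9 with an unadjusted p under 0.05 in smoke (unadjusted p = 0.0321, adjusted p = 0.616), beside 7.74% of all genes. Fcer2a had 11.0 to 13.3 CPM in male smoke and 6.69 to 11.9 CPM in female smoke, ranges that meet at the top female library. In the interaction of sex and smoke 0 of 9 passed, where 0.00611% of all genes were called, and 1 of 9, Cxcr5, had an unadjusted p under 0.05, beside 5.75% of all genes. DESeq2 and limma called 0 of 9 between the sexes in smoke and in the interaction, and limma called 0 of 9 in air. The comparisons of smoke and of sex share their groups, so their values are not independent of each other.

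Removal of the ovaries was compared with sham surgery in smoke-exposed females. At 3 months 0 of 9 genes passed in edgeR's test and 0% of all 16874 genes did, while 9.29% of all genes and 0 of the 9 had an unadjusted p under 0.05. Cxcl13 had 19.7, 13.2 and 16.0 CPM in sham and 33.6, 6.29 and 17.2 CPM in ovariectomy libraries at 3 months. The ovariectomy libraries spread to both sides of the sham libraries, and the log2 fold change was 0.22 ± 0.56 (SE). The 9 values ran from -0.32 for Fcer2a to 0.26 for Ms4a1.

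At 5 months 0 of 9 passed in edgeR's test, where 1.36% of all genes did, and 0 of the 9 had an unadjusted p under 0.05, beside 15.5% of all genes. Sham libraries had 18.5, 26.4, 15.0, 9.87 and 26.1 CPM of Cxcl13, and ovariectomy libraries had 15.1, 10.8, 9.97, 14.1 and 28.7 CPM. These ranges nearly coincide, and the log2 fold change was -0.29 ± 0.43 (SE). The 9 values ran from -0.36 ± 0.31 (SE) for Fcer2a to 0.49 ± 0.32 for Pax5. Tnfsf13b, the B cell survival factor BAFF, was called higher after ovariectomy at 5 months, as the only 1 of 10 survival genes. Its mean was 17.9 ± 0.778 CPM (SD, n = 5) in sham and 24.9 ± 3.60 (n = 5) in ovariectomy libraries, a log2 fold change of 0.48 (adjusted p = 0.0361 in edgeR's test). The call held in 8 of 16 fits without 1 library and in 6 of 10 other settings. Some of the libraries over 100 CPM of Alb belong to this comparison, and the fit without them was among the settings in which the call did not hold. That fit left 1 ovariectomy library at 3 months. The other B cell list gave 0 of 21 at either time in edgeR's test, DESeq2 and limma, with 0 at an unadjusted p under 0.05. The plasma cell list gave 0 of 14 by the same tools, with 2 at 3 months and 3 at 5 months at an unadjusted p under 0.05.

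**Figure D5:**
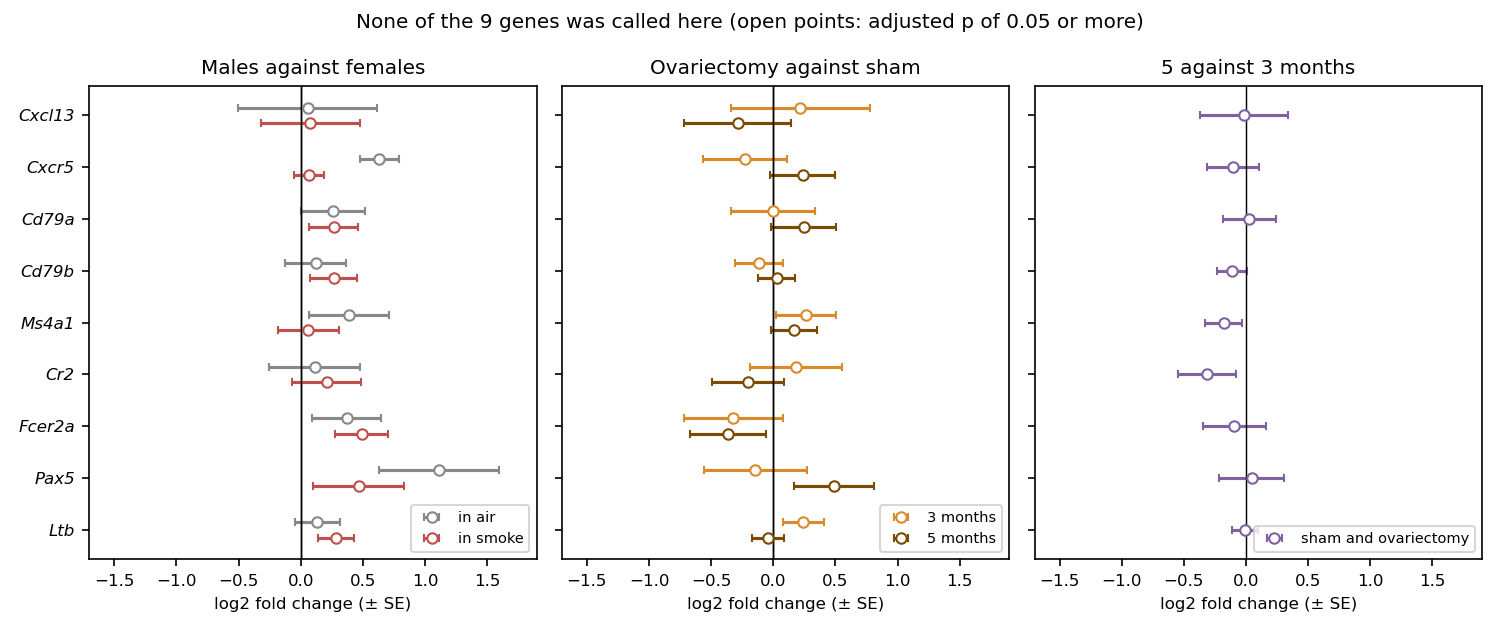
Log2 fold changes with SE for males against females (left), ovariectomy against sham (middle) and 5 against 3 months in females that had surgery (right). All points are open, since none of the 9 genes had an adjusted p under 0.05, and Cxcr5 in air, at 0.63, is furthest from 0 for its SE.

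The response to ovariectomy at 5 months minus that at 3 months gave 0 of 9 in edgeR's test and 0% of all genes, with 0 of 9 and 5% of all genes at an unadjusted p under 0.05. It ran from -0.51 ± 0.71 (SE) for Cxcl13 to 0.63 ± 0.52 for Pax5. For 5 against 3 months, 0 of 9 passed in edgeR's test, where 0.13% of all genes did, and 0 of 9 had an unadjusted p under 0.05, beside 13.4% of all genes. Those values ran from -0.31 ± 0.23 (SE) for Cr2 to 0.05 ± 0.26 for Pax5, and Cxcl13 lay at -0.02 ± 0.35. Time cannot be told apart from the day or batch of collection. DESeq2 and limma also called 0 of 9 in each comparison of experiment 2.

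Ms4a1 stood differently to Cd79a in the 2 experiments. The ratio of its TPM to that of Cd79a was 0.221 ± 0.0519 (SD, n = 3) in female air and 0.251 ± 0.0198 (n = 3) in male air. It was 0.393 ± 0.0594 (n = 5) in female smoke and 0.335 ± 0.0259 (n = 5) in male smoke, and between 0.665 and 0.898 on average in the 4 groups of experiment 2. The Ms4a1 level was 18.0 to 40.9 TPM in experiment 2 and 3.31 to 20.3 TPM in experiment 1, with no overlap in order between sham at 5 months and male smoke, or between female smoke and male air. Cd79a had no such step, at 22.1 to 52.5 TPM in experiment 2 and 20.5 to 63.5 TPM in experiment 1. Cr2 was 0.0282 to 0.0538 of the Cd79a level over the 8 groups. The experiments differ in surgery and in their libraries, which cannot be told apart, and no test was made between them.

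Among libraries of the same group, most of the B cell genes had higher correlations with each other than with Cxcl13. Over the 32 libraries, the correlation of deviations from the group mean of log2 CPM was 0.79 between Cd79a and Cd79b and 0.80 between Cd79a and Ms4a1. Between Cd79a and Pax5 it was 0.74, between Cd79a and Ltb 0.71 and between Cd79a and Cr2 0.66. Cxcr5 had 0.65 with Cd79a but 0.22 with both Ltb and Cr2. Cxcl13 had 0.0087 to 0.29 with the other 8 genes, highest with Cxcr5 (0.29) and Ms4a1 (0.24), which is above the values of Cxcr5 with Ltb and Cr2. These values are Pearson correlations given as a description, and the genes share library, depth and tissue piece.

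Among the 6 genes most like Cd79a over the 32 libraries, by the correlation of log2 CPM less the mean of its experiment, among 13471 genes, were Fam65b (0.79), the Fc receptor-like gene Fcrla (0.79), the tetraspanin gene Cd37 (0.77), Fcrl1 (0.75) and the B cell coactivator gene Pou2af1 (0.74). Of the 6, 4 were again in the top 6 when the group means were removed and 5 by Spearman correlation. Cxcl13 was most like Igj (0.80), Mturn (0.76), Kcnd3 (0.74), Nek7 (0.72), Pof1b (0.72) and Flrt1 (0.72). None of these 6 was in the top 6 once the group means were removed, when they correlated with Cxcl13 at 0.31 to 0.57, and Igj alone remained in the top 6 by Spearman correlation. By the first measure, centred by experiment, the correlation of Cxcl13 was 0.57 with Ms4a1, 0.41 with Cxcr5 and 0.28 with Cd79a.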

How the data were processed

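The authors deposited whole-number counts per Ensembl gene and a normalized table for lung libraries of 8 groups in 2 experiments. The header of the normalized table names no unit; the deposited values are TPM, since count over gene length, rescaled within a library, gives 100% of them back at a tolerance of 1e-06. Per the submitters' processing notes FastQC and the builds GRCm38 and mm10 were used; for the aligner, the counting program and the use of strand the status is: not given in the sources used here. Per the labels' protocols, Trizol was used for RNA and an NEBNext Ultra kit for libraries.

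Each experiment's counts were fitted with edgeR 4.0.16 in R 4.3.3: genes kept by filterByExpr (all 9 genes were kept, through the main Cr2 row), TMM scaling, 1 mean per group, a robust fit whose spread all 4 groups share, quasi-likelihood F test, Benjamini-Hochberg adjustment over all genes kept, and a call at an adjusted p under 0.05. CPM use TMM-scaled totals of the experiment, and means ± SD are over libraries. The sum of 13790052 to 24497332 counts per library and the 3 or 5 libraries per group set the precision. Replicate numbers were not used as pairs. No library was a near-copy of another in its group. The steps were tested on simulated data.

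The 9 genes and the 19 lists of markers and pathways were chosen with earlier results of these data known. At most the 5 called genes of a list with the smallest p are named, and at most 2 of a list without calls, and some are not reported here; the 6 genes most like Cxcl13 and Cd79a were ranked over genes whose mean log2 CPM was 0 or more. Promoter windows are RefSeq's, on GRCm38.p6; Cxcr5, Cd79b and Ms4a1 have none in that table.

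Alternatives were RLE size factors, no filter, only the groups compared, DESeq2, a strict filter (3 libraries with a CPM of 1 or more), a single fit to all 32 libraries, a block for the replicate number, limma-trend on log2(TPM + 1) and log2(TPM + 0.1), each library left out, and, chosen after seeing the data, without libraries over 100 CPM of Alb. Plots used matplotlib.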

Additional observations from a re-analysis of the deposited data

Results flagged for a closer look

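In groups of 5 libraries, the highest or lowest library was set against the nearest of the others by Dixon's test for a single outlying value. Of 36 sets of values tested, each of 1 gene in 1 group, 7 had such a library. Chance gives about 1 in 20 for a single test. The genes share libraries, so the 36 tests are not independent and the 7 cannot be set against that rate. Library 3 of sham at 5 months was the highest of its group in 3 of the genes: Cxcr5 at 17.8 CPM with the next at 10.3, Fcer2a at 15.8 with the next at 6.74, and Pax5 at 14.2 with the next at 6.08. The same library had 12 counts of Il21, the highest count of the 32 libraries. Cxcl13 reached 28.7 CPM in ovariectomy 5-month library 5, where the next was 15.1, and that library also had over 100 CPM of Alb. Ms4a1 was lowest in ovariectomy 5-month library 3, at 26.3 CPM with the next at 37.9. Cr2 was highest in female smoke library 1, at 6.51 CPM with the next at 4.64, and Pax5 in male smoke library 1, at 24.3 CPM with the next at 10.5.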

How the results depend on the processing

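In females 2 of the 9 genes were called in smoke against air, and 1 to 3 when a library was left out; without a filter 1 was called. In males 1 was called, 0 to 2 when a library was left out, and 0 without a filter, with only the groups compared, or without libraries over 100 CPM of Alb. In air, DESeq2 called 1 gene between the sexes, where the main count was 0. Replicate numbers gave no sign of pairing (same-number deviations correlated at -0.27 to 0.20), and with the number as a replicate block 3 genes were called in females, Ms4a1 with an adjusted p of 0.0463, and 1 in males. Cxcl13 in females lost its call without a filter (0.0803), with limma on log2(TPM + 0.1) (0.0503) and without the Alb libraries (0.0870), and in males without a filter (0.0675), with only the groups compared (0.0619) and without the Alb libraries (0.153). List calls lost without the Alb libraries also included Cxcr4, Tnfrsf1a and Il7r in females and S1pr2, Pdpn, Cd4, Fabp1 and Cldn18 in males. Those of Icam1 and Cxcl12 held in that fit in both sexes.

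Values that changed sign were those that had not passed. The ones below are of the fold changes that were followed one by one. Among the refits of the other fold changes of these genes, the sign changed in 90 and did not in 984. Without the Alb libraries Cxcl13 had -0.45 in the sex by smoke interaction, Fcer2a 0.32 after ovariectomy at 3 months and Pax5 -0.020 in the ovariectomy by time interaction; that setting left 1 ovariectomy library at 3 months, which is assumed to vary like the others. Cxcl13 between the sexes in air had -0.061 with the block and -0.072 and -0.12 with limma. After ovariectomy at 3 months Cxcl13 had -0.094 and -0.11 with limma. For 5 against 3 months limma gave -0.038 and -0.048 for Pax5 and 0.0012 and 0.0046 for Cxcl13. With single libraries left out, Fcer2a ran from -0.014 to 0.54 for smoke in females, Pax5 from -0.24 to 0.27 for smoke in males, Cxcl13 from -0.37 to 0.88 and Ltb from -0.010 to 0.39 in the sex by smoke interaction, Cxcl13 from -0.048 to 0.45 and Ms4a1 from -0.037 to 0.16 between the sexes in smoke, and Cxcl13 from -0.81 to 0.44 in air. In experiment 2 Cxcl13 ran from -0.47 to 0.64 for ovariectomy at 3 months, Fcer2a from -0.48 to 0.048 at 5 months, Cxcl13 from -0.93 to 0.18 in the ovariectomy by time interaction, and Pax5 from -0.17 to 0.22 and Cxcl13 from -0.23 to 0.33 for 5 against 3 months. The cause of these moves was not tested.

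Counts over all genes moved by over 1.5 times in places. In smoke 1259 genes were called in females and 1678 in males, and limma called 788 and 991 with the smaller pseudocount, 789 and 992 with the larger. With 1 library left out the counts ran from 490 to 1380 and from 962 to 1809. DESeq2 called 16 in the sex by smoke interaction against 1, 63 between the sexes in smoke against 31, 128 in air against 29, and 96, 602, 16 and 490 for ovariectomy at 3 and 5 months, their difference and time against 0, 230, 0 and 22. Only the groups compared was not run for the interactions and time. Groups of 3 limit what a missed threshold can show.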
